A study of Mus musculus with 8 samples.

Results

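The genes described here encode 8 proteins of gluconeogenesis and of its substrate entry. They were G6pc, Slc37a4, Pck1, Pck2, Fbp1, Gpd1, Aqp9 and Ldha, chosen by name, and each name matched 1 row of the 45706 genes in the liver count table. All 8 were among the 14629 genes with enough counts to be tested. RNA sequencing had been done on the liver of 4 WT mice and 4 S155A mice, with 1 library per mouse. The S155A mice carried a CRISPR-Cas9 knock-in in all tissues, homozygous by the study's methods, which replaces the serine at the named position of perilipin 5 (PLIN5), a lipid droplet protein, with an alanine that cannot be phosphorylated. The line came from a founder mouse, and whether the WT mice were its littermates is not given in the sources used here. Every mouse was a C57BL/6J female, 4 months old, raised on chow and killed after an overnight fast, so there was no fed group. The labels name hepatocytes as the cell type and liver as the tissue, and RNA had been extracted from liver.

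Gluconeogenesis makes glucose from lactate, amino acids and glycerol, and the liver relies on it during a fast once glycogen runs low. Most of its steps are glycolytic reactions run backwards. The irreversible ones are bypassed by pyruvate carboxylase and phosphoenolpyruvate carboxykinase, by fructose-1,6-bisphosphatase, and by glucose-6-phosphatase, which acts inside the endoplasmic reticulum. Glucagon, through cAMP and CREB, and glucocorticoids raise transcription of Pck1 and G6pc, and insulin lowers it by excluding FOXO1 from the nucleus.

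The promoters of G6pc and of both phosphoenolpyruvate carboxykinase genes are shown because these genes are the usual transcriptional readouts of the fasting hormones. Each sequence, from RefSeq on GRCm38.p6, runs 5′ to 3′ along the gene from 250 bases before a transcription start site to 50 bases after it. Capitals mark the motifs TGTTTTG (insulin response core), TTACGT on either strand (the start of a variant cAMP response element), TGACG on either strand (the core of the standard element) and TATAAA, and overlapping matches run together.
G6pc, chr11:101367466-101367765, forward strand: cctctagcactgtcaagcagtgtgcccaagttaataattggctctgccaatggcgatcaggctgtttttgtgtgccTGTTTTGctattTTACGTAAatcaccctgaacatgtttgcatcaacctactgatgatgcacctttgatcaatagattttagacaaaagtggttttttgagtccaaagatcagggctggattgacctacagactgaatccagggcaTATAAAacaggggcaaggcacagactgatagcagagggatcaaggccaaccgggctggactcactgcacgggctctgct
Pck1, chr2:173152823-173153122, forward strand: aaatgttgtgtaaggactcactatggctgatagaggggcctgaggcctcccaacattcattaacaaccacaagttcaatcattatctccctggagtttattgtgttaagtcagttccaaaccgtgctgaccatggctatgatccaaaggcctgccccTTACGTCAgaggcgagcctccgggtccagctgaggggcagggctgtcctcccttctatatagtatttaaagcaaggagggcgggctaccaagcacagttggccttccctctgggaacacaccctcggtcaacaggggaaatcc
Pck2, chr14:55540016-55540315, forward strand: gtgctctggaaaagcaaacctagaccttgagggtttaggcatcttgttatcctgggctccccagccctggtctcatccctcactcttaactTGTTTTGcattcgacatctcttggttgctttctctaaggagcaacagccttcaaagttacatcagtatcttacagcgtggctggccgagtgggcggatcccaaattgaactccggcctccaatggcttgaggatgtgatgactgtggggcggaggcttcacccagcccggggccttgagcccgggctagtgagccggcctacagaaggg

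Positions are those of the leftmost base, counted from the start site with a minus sign before it. TGTTTTG lay at -174 in G6pc and at -159 in Pck2, and no match was in the Pck1 window. TTACGT lay at -162 in G6pc, with an overlapping match on the reverse strand, and at -93 in Pck1, where a reverse-strand TGACG overlapped it. Pck2 held neither of these letters. TATAAA lay at -29 in G6pc. RefSeq gave 11 such windows for 7 of the 8 genes, and the full element TGACGTCA was in 1 of them, at -12 from a Ldha start. Of all 32851 RefSeq promoters of the same length, 6.28% held TGTTTTG, 2.72% TTACGT, 20.8% TGACG, 1.79% TGACGTCA and 13.6% TATAAA on either strand, and among the 11 windows the counts were 2, 3, 5, 1 and 2. The windows were not independent, as some genes had more than 1, and those with TGACG belonged only to Ldha, Slc37a4 and Pck1. The Slc37a4 windows that begin at 44396696 and 44396849 overlap and hold the same TGACG, at -61 and -214, which was counted in both. TTACGT was added to the search after the sequences had been read. TGTTTAC, a forkhead site that 3.65% of promoters held, and CAAAGTCCA, an HNF4 motif that 0.475% held, were in none of the 11, and TGTTCT, a glucocorticoid receptor motif in 19.0% of promoters, was in 1, of Aqp9.

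Levels of different genes were compared as CPM (counts scaled to library size after TMM normalization) per kilobase of exon, over all 8 mice. Pck1, the cytosolic phosphoenolpyruvate carboxykinase, stood at 831 ± 201 CPM per kilobase (SD, n = 8), rank 67 of 14569 genes with an exon length. Fbp1, fructose-1,6-bisphosphatase, stood at 753 ± 67.1, and Ldha, the muscle-type subunit of lactate dehydrogenase, at 650 ± 96.8. These highest genes overlapped: Pck1 exceeded Fbp1 in 3 of 8 mice, and Fbp1 exceeded Ldha in 6 of 8. Gpd1, the cytosolic glycerol-3-phosphate dehydrogenase, came next with 301 ± 66.2 and lay below Ldha in every mouse. Aqp9, the glycerol channel of the hepatocyte membrane, had 123 ± 10.1 and lay below Gpd1 in every mouse.

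G6pc, the catalytic subunit of glucose-6-phosphatase, had 103 ± 40.8 CPM per kilobase, and Slc37a4, which carries glucose-6-phosphate into the endoplasmic reticulum for it, had 71.3 ± 20. Aqp9 exceeded G6pc in 6 of 8 mice and G6pc exceeded Slc37a4 in 4 of 8, so the order of these neighbours was not fixed. Pck2, the mitochondrial phosphoenolpyruvate carboxykinase, was far lower, at 0.705 ± 0.0606 CPM per kilobase and rank 10422. Per kilobase, Pck1 exceeded Pck2 by 836-fold to 1616-fold in each of the 8 mice. This fold depends on the exon length, the union over all transcripts, which was 3429 bases for Pck1 and 7806 bases for Pck2. Without length, the log2 ratio of their CPM was 8.51 to 9.46. Fbp1 exceeded its muscle form Fbp2 by 887-fold to 7319-fold, where Fbp2 had as few as 8 counts in a library. Ldha exceeded Ldhb by 151-fold to 477-fold, Gpd1 exceeded the mitochondrial Gpd2 by 40.2-fold to 67.2-fold, and G6pc exceeded the widely expressed G6pc3 by 15.9-fold to 47.1-fold.

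Plin5 had 206 ± 32.3 CPM in WT and 328 ± 118 CPM in S155A and overlapped between genotypes (log2 fold change 0.67, unadjusted p = 0.0193, adjusted p = 0.993 by edgeR); its count does not check the edited codon. The total count per library was 39709785 to 54540864, the mitochondrial share 2.86% to 3.49%, and 6 of 6 hepatocyte markers were detected in every library, with summed levels of 90807 to 106001 CPM in WT and 86854 to 124983 CPM in S155A. Some libraries stood apart in other cell types. The 8 pancreatic acinar markers, of which 7 were at 0 in some library, summed to 29.8 CPM in WT replicate 2 and to at most 0.554 CPM in S155A, and the 8 lymphocyte and plasma cell markers summed to 2061 CPM in S155A replicate 3 and 18.6 to 45.6 CPM in WT. The 5 red blood cell markers summed to 411 to 2647 CPM in WT, highest in WT replicate 4, and to 951 to 1154 CPM in S155A. Markers of kidney proximal tubule, another site of gluconeogenesis, summed to at most 1.93 CPM, and those of adipocytes, which also express Pck1, to at most 0.926 CPM.

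The comparison of S155A with WT livers asked whether gluconeogenic transcripts depended on the phosphorylation site of PLIN5 during a fast. No member was called, meaning an adjusted p under 0.05 in edgeR's quasi-likelihood test, 0 of 8. Over all genes 0% were called, and 497 of 14629 had an unadjusted p under 0.05, 208 higher and 289 lower in S155A. DESeq2 called 6 of all genes and limma-voom 0, and neither called a member. Of the 8, 4 were higher and 4 lower in S155A by the fitted value. Their median log2 fold change was -0.033, beside -0.0050 over all genes tested.

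G6pc was lower in S155A livers without overlap between the groups. It had 213, 242, 335 and 451 CPM in WT replicates 1 to 4, and 154, 181, 195 and 208 CPM in S155A replicates 1 to 4. Every S155A mouse lay below every WT mouse, with S155A replicate 4 and WT replicate 1 nearly touching. The means were 311 ± 107 CPM in WT and 184 ± 23.2 CPM in S155A (SD, n = 4 each), and the coefficient of variation was 34.6% in WT against 12.6% in S155A. The log2 fold change was -0.75 (SE 0.22, 95% interval -1.24 to -0.26). Its unadjusted p was 0.00655, rank 52 among all genes, and the adjusted p of edgeR was 0.993, so G6pc did not pass the test. An exact permutation test on log2 CPM, two-sided here as for every gene, gave p = 0.0286, the smallest that 4 mice against 4 allow. By qPCR, the study reported no change of this gene in female or young male knock-in liver, and a trend of reduction in old males. Whether its females included the sequenced mice is not stated.

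G6pc was 1 of 8 members lower at an unadjusted p under 0.05, against 1.98% of all genes, and 1 of 8 with every S155A mouse below every WT mouse, against 1.36% of all genes. Leaving out WT replicate 4, the highest mouse, gave a log2 fold change of -0.51 (unadjusted p = 0.0159), and leaving out WT replicate 1, the lowest WT mouse, gave -0.89 (unadjusted p = 0.00186). WT replicate 4, the mouse with the most G6pc and Pck1 and the highest red blood cell markers, also had 92.8 CPM of Nr4a1 and 76.9 CPM of Sik1, genes that cAMP signalling induces, against at most 29.1 CPM and 25.1 CPM in the other 7 mice. Values of other listed regulators were mixed. Crem (20.3 CPM) and Atf3 (6.24 CPM) were also highest in WT replicate 4. Ppargc1a was not, with 11.7 CPM there and 29.5 CPM in S155A replicate 4. Neither was Nr4a3, with 0.336 CPM there and 0.478 CPM in WT replicate 2. All of these regulators were picked after their values were seen, and the part of these differences in the values of G6pc was not tested. When WT replicate 2 and S155A replicate 3, the libraries with the most acinar and plasma cell markers, were left out, G6pc had a log2 fold change of -0.88 (unadjusted p = 0.00797). The gene lies at chr11:101367561-101377903 of GRCm38 on the forward strand, where no other annotated gene overlaps it. Because whole liver was sequenced, fewer cells of a type and less RNA per cell cannot be told apart in general. The 6 hepatocyte markers had log2 fold changes of -0.085 to 0.32 with a median of 0.11, and 5 of them were higher in S155A. Such markers vary between mice, as Cps1 did from 1829 to 5262 CPM within WT. The part of hepatocyte number in the values of G6pc was not tested.

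**Figure D1:**
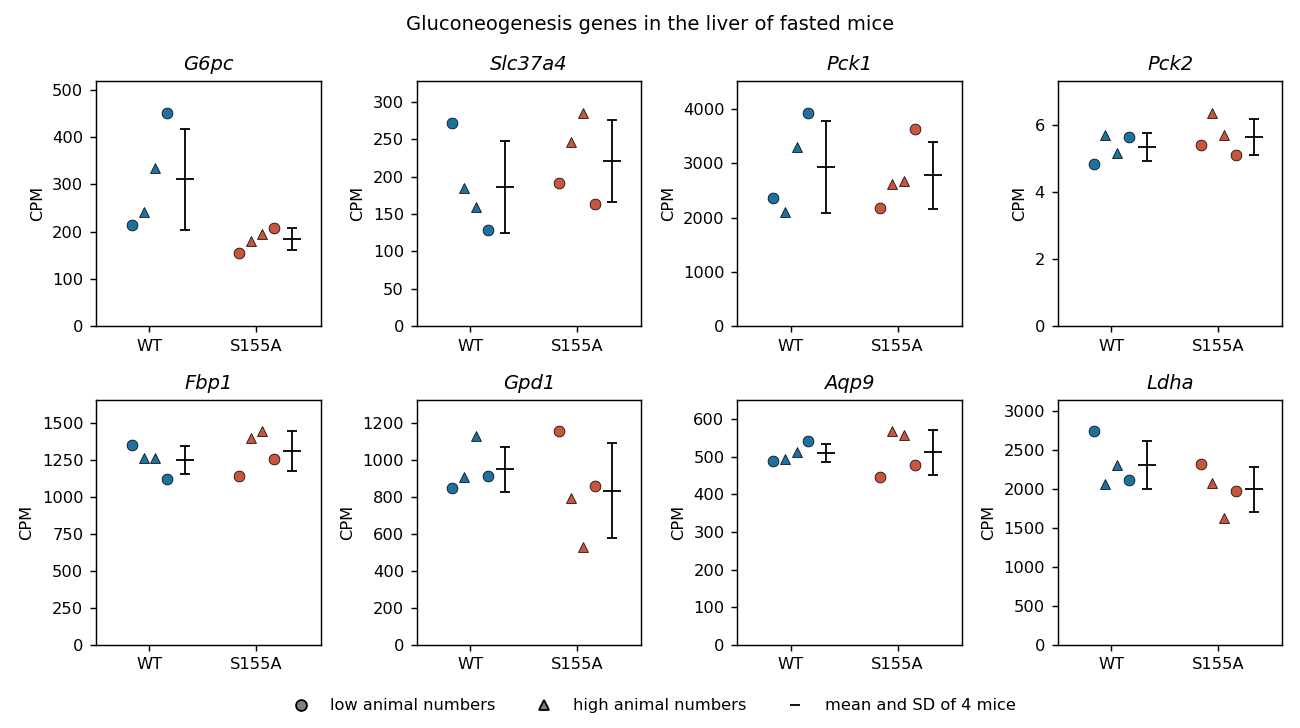
CPM of each gene in the 8 livers, 1 panel per gene with its own axis from 0; points are mice (circles for low and triangles for high animal numbers), in replicate order from left to right, and the bar beside them is the mean and SD of 4 mice. G6pc separated the genotypes, with 154 to 208 CPM in S155A and 213 to 451 CPM in WT, and the other 7 genes overlapped.

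Slc37a4 lies at chr9:44396852-44402968 on the forward strand, and the microRNA gene Mir7085 overlaps it on the same strand. It had 272, 185, 159 and 128 CPM in WT replicates 1 to 4. In S155A replicates 1 to 4 it had 191, 246, 285 and 163 CPM. The genotypes overlapped over most of their range. The means were 186 ± 61.7 CPM and 221 ± 54.4 CPM, with a log2 fold change of 0.25 (SE 0.24, 95% interval -0.29 to 0.79, adjusted p = 0.993 by edgeR, exact permutation p = 0.371). In WT mice G6pc and Slc37a4 ran in opposite orders, with WT replicate 1 lowest for the phosphatase and highest for the transporter and WT replicate 4 the reverse. In S155A mice they did not, as G6pc rose from replicate 1 to 4 and Slc37a4 was highest in replicate 3. The log2 fold change of Slc37a4 moved with single mice, to 0.49 without WT replicate 1 (unadjusted p = 0.0399), 0.11 without WT replicate 4 (0.658) and 0.11 without S155A replicate 3 (0.675), and it was 0.10 with both WT replicate 2 and S155A replicate 3 left out.

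Pck1, at chr2:173153048-173159273 on the forward strand, was abundant and variable in both genotypes. It had 2358, 2101, 3309 and 3928 CPM in WT replicates 1 to 4 and 2182, 2620, 2674 and 3635 CPM in S155A replicates 1 to 4. The 2 ranges nearly coincided. With means of 2924 ± 847 CPM and 2778 ± 612 CPM, the log2 fold change was -0.074 (SE 0.22, 95% interval -0.56 to 0.42, adjusted p = 0.996 by edgeR, exact permutation p = 0.914). The lower bound lay inside the interval of G6pc, and the difference between the 2 genes in their response was not tested. The sign was not stable: leaving out WT replicate 4 gave 0.10, and without S155A replicate 1 it was 0.025.

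Pck2 had 4.85 to 5.72 CPM in WT and 5.12 to 6.37 CPM in S155A, from 216 to 308 counts per library. The genotypes overlapped, with a log2 fold change of 0.079 (SE 0.14, 95% interval -0.24 to 0.40, adjusted p = 0.996 by edgeR). The gene lies at chr14:55540266-55551242 on the forward strand. Gm10876 overlaps it on the other strand, and how strand was used in the counting is not stated.

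Fbp1, the bypass of phosphofructokinase, lies at chr13:62864753-62888282 on the reverse strand. It had 1356, 1263, 1263 and 1126 CPM in WT replicates 1 to 4 and 1143, 1403, 1445 and 1260 CPM in S155A replicates 1 to 4. Values were close to each other in all 8 mice. The log2 fold change was 0.068 (SE 0.11, 95% interval -0.18 to 0.32, adjusted p = 0.994 by edgeR, exact permutation p = 0.486).

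The remaining members bring in substrate. Ldha, which interconverts lactate and pyruvate, lies at chr7:46841475-46855627 on the forward strand. It had 2737, 2065, 2302 and 2120 CPM in WT replicates 1 to 4 and 2313, 2076, 1620 and 1978 CPM in S155A replicates 1 to 4. S155A replicate 3 was the lowest mouse and WT replicate 1 the highest, with overlap between them. The log2 fold change was -0.21 (SE 0.14, 95% interval -0.52 to 0.10, adjusted p = 0.993 by edgeR, exact permutation p = 0.229).

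Aqp9, through which glycerol enters hepatocytes, had the steadiest WT values, 490, 495, 513 and 542 CPM in replicates 1 to 4. S155A replicates 1 to 4 had 447, 568, 558 and 478 CPM, on both sides of the WT range. The log2 fold change was 0.0085 (SE 0.11, 95% interval -0.23 to 0.25, adjusted p = 1.0 by edgeR, exact permutation p = 0.971), and its sign turned with the scaling: it was -0.037 with library size alone. The gene lies at chr9:71110659-71168682 on the reverse strand, with Gm47268 and Gm32511 overlapping it on the other strand.

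Gpd1 links glycerol-3-phosphate to dihydroxyacetone phosphate, where glycerol joins the pathway. It had 847, 909, 1129 and 914 CPM in WT replicates 1 to 4 and 1155, 795, 531 and 857 CPM in S155A replicates 1 to 4. The S155A mice held both the highest and the lowest value, so their range enclosed that of WT. The log2 fold change was -0.19 (SE 0.21, 95% interval -0.65 to 0.28, adjusted p = 0.993 by edgeR, exact permutation p = 0.40), and it was -0.020 without S155A replicate 3, the lowest mouse, and -0.38 without S155A replicate 1, the highest (unadjusted p = 0.0626). The gene lies at chr15:99717515-99725005 on the forward strand, and Gm16537 overlaps it on the other strand.

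The animal numbers in the labels fall into 2 ranges, 89 to 123 (low) and 830 to 869 (high), with 2 mice of each genotype in each, and what the numbers stand for is not stated. The difference for G6pc had the same sign in both: S155A minus WT was -0.80 in mean log2 CPM with low numbers and -0.60 with high numbers. The interaction of genotype and number range, which tests whether these differences differ, was 0.26 on the log2 scale (SE 0.46, 95% interval -0.78 to 1.30, adjusted p = 0.878 by edgeR). For Ldha the differences were -0.17 and -0.25.

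Slc37a4 differed by -0.080 with low numbers and 0.62 with high numbers (interaction 0.80, SE 0.42, unadjusted p = 0.0903, adjusted p = 0.528 by edgeR). Single WT mice decided this value: the interaction was 0.16 without WT replicate 1 (unadjusted p = 0.486) and 1.24 without WT replicate 4 (unadjusted p = 0.000695, adjusted p = 0.094). Gpd1 differed by 0.18 with low and by -0.64 with high numbers. Its interaction was -0.81 (SE 0.32, 95% interval -1.53 to -0.093), with an unadjusted p of 0.0311 and an adjusted p of 0.40 by edgeR. It ranged from -1.13 without S155A replicate 2 to -0.55 without S155A replicate 3. Gpd1 was the 1 member of 8 at an unadjusted p under 0.05, against 11.1% of all genes, 1622 in number. By edgeR 0% of all genes and 0 of 8 members were called for the interaction, while DESeq2 called 285 genes and no member, and limma-voom called 1.

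Fbp1 differed by -0.042 and 0.17 in the low and high ranges, Aqp9 by -0.16 and 0.16, Pck2 by 0.0066 and 0.15, and Pck1 by -0.11 and 0.0053. None of these had an interaction at an unadjusted p under 0.05. Marker lists were also unlike in the 2 ranges. The median difference of the 5 Kupffer cell markers was -0.49 with low and 0.94 with high numbers. Of their interactions 4 of 5 were positive at an unadjusted p under 0.05, against 6.02% of all genes. For the 8 lymphocyte and plasma cell markers the medians were -0.026 and 1.38, with 4 of 8. The plasma cell part rested on S155A replicate 3, with 1164 CPM of Ighm and 806 CPM of Igkc, against 8.89 and 21.2 CPM in S155A replicate 2. The 6 hepatocyte markers had medians of -0.097 and 0.32, with 2 of 6 positive interactions. The part of these shifts in the members' interactions was not tested. Between the ranges themselves, with genotype in the model, the members differed by -0.19 to 0.18 on the log2 scale, with adjusted p from 0.584 to 0.929 by edgeR.

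**Figure D2:**
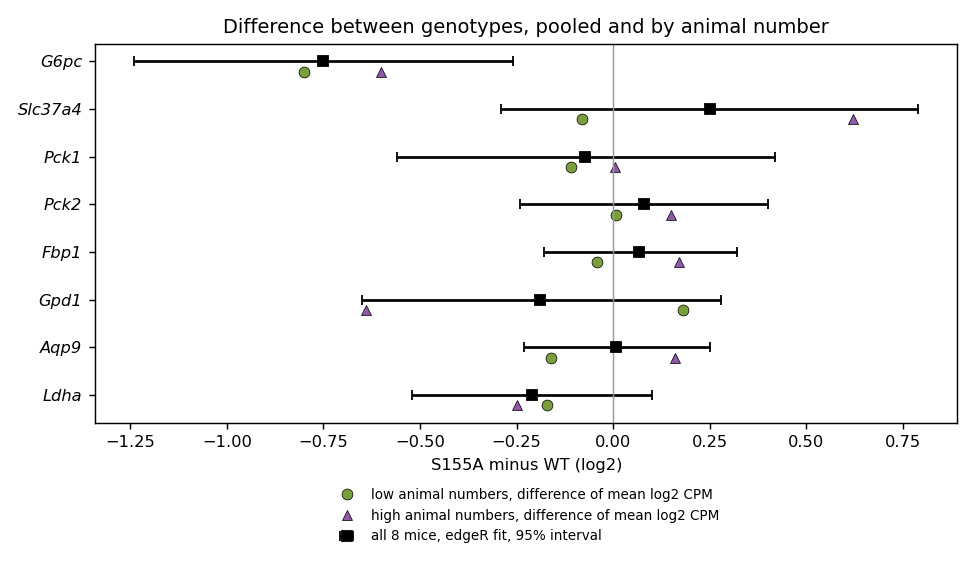
S155A minus WT on the log2 scale for each gene; squares and bars are edgeR's log2 fold change over 8 mice with its 95% interval, circles and triangles the difference of mean log2 CPM in the low and the high animal numbers. The interval of G6pc, -1.24 to -0.26, lay below 0 and the other 7 included 0, while the points of Gpd1, 0.18 and -0.64, lay on opposite sides.

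Ratios of CPM within a mouse compared enzymes that act together or against each other, with 7 ratios compared, 6 of them given here, and a two-sided exact permutation test of each, whose smallest p is 0.0286. G6pc to Slc37a4, the phosphatase against its transporter, was -0.35, 0.39, 1.08 and 1.81 in log2 in WT replicates 1 to 4. In S155A replicates 1 to 4 it was -0.32, -0.44, -0.55 and 0.35. WT replicate 1 lay among the S155A mice, and the other WT mice lay above all of them. The difference of the means was -0.97 (0.73 ± 0.93 in WT, -0.24 ± 0.40 in S155A, SD, n = 4 each, exact permutation p = 0.0857), and it was -0.72 with low and -1.22 with high animal numbers. Without WT replicate 4 it was -0.61 and without WT replicate 1 it was -1.33 (exact permutation p = 0.20 and 0.0571).

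The other ratios overlapped between genotypes as well. The log2 difference was -0.13 for Pck1 to Pck2 (exact permutation p = 0.714), 0.037 for Fbp1 to Pfkl, the liver phosphofructokinase (exact permutation p = 0.80), and 0.075 for Pck1 to Pklr, the liver pyruvate kinase (exact permutation p = 0.886). It was -0.42 for Ldha to Ldhb (exact permutation p = 0.314) and 0.17 for Gpd1 to Gpd2 (exact permutation p = 0.40). The ratio of Ldha to Ldhb was lowest in S155A replicate 3, the mouse with the most plasma cell transcripts, and without it the difference was -0.097 (exact permutation p = 0.629), while without S155A replicate 1 it was -0.62 (exact permutation p = 0.0571).

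**Figure D3:**
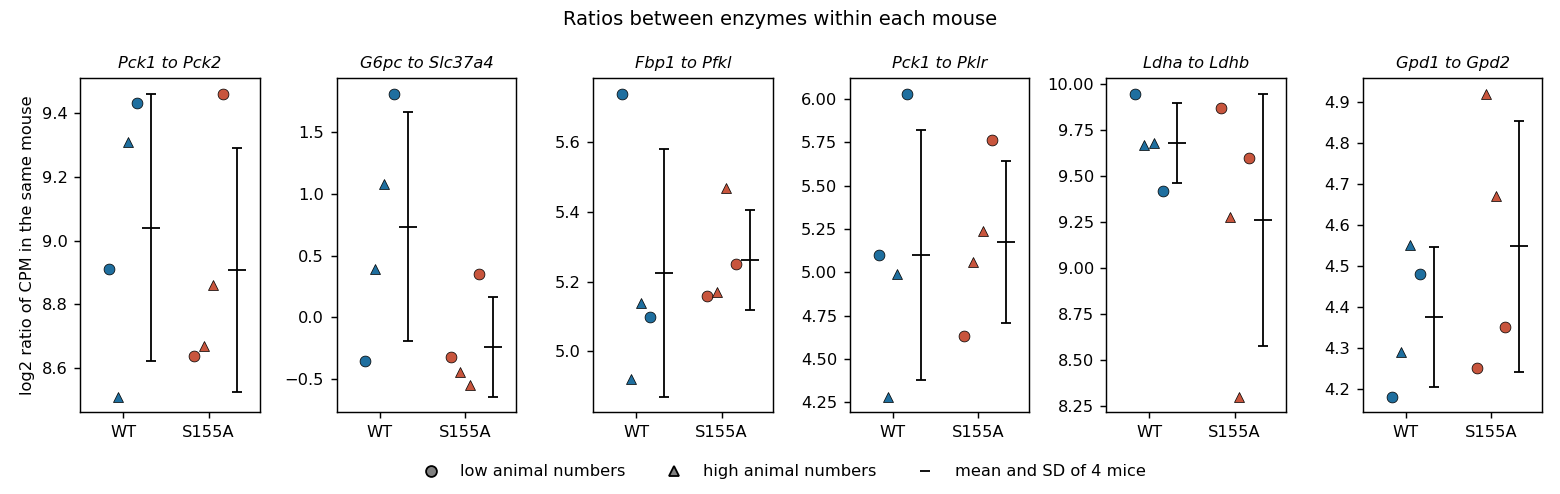
Log2 ratio of the CPM of 2 enzymes in the same mouse, 1 panel per ratio with its own axis, which does not start at 0; points are mice in replicate order and the bar is the mean and SD of 4 mice. G6pc to Slc37a4 spread from -0.35 to 1.81 in WT and from -0.55 to 0.35 in S155A, and all 6 ratios drawn overlapped between the genotypes.

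The other genes of glucose production were read from lists by role. Of the 17 genes of reversible and shared steps, 13 were higher and 4 lower in S155A, with a median log2 fold change of 0.099, and 0 were called. Pcx, pyruvate carboxylase, which supplies the substrate of Pck1, had 1022 ± 46.4 CPM in WT and 1022 ± 141 CPM in S155A. G6pc3, the widely expressed relative of G6pc, was 8.10 ± 0.693 CPM in WT and 9.55 ± 0.818 CPM in S155A (log2 fold change 0.24, unadjusted p = 0.0889, adjusted p = 0.993 by edgeR). The groups all but touched, with the highest WT mouse at 8.84 CPM and the lowest S155A mouse at 8.85 CPM. Gpd2 and Gyk, the mitochondrial partner of Gpd1 and glycerol kinase, had interactions of -1.23 and -0.64 (unadjusted p = 0.00162 and 0.0182, adjusted p = 0.253 and 0.349 by edgeR). Pcx had a positive one, 0.43 (unadjusted p = 0.0355, adjusted p = 0.414 by edgeR), and the median interaction of the list was 0.13, with 1 positive and 3 negative at an unadjusted p under 0.05.

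Substrate supply and carriers gave 13 higher and 7 lower of 20 tested genes, with a median of 0.021 and 0 called. In the interaction 6 of these 20 were positive and 1 negative at an unadjusted p under 0.05, against 6.02% positive and 5.07% negative over all genes. The median interaction of the Kupffer, lymphocyte and plasma cell, and hepatocyte markers was positive as well, at 1.42, 1.91 and 0.41, and their part was not tested. Tat, tyrosine aminotransferase, had an interaction of 1.44, Sds, serine dehydratase, of 0.80 and Slc16a1, the lactate carrier MCT1, of -1.29 (unadjusted p = 0.00368, 0.00591 and 0.0449, adjusted p = 0.282, 0.287 and 0.438 by edgeR). The median interaction of the list was 0.39, against 0.18 for the 8 members and -0.0092 for all genes. The members and this list share no gene.

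Opposing glycolytic steps were split evenly, 7 higher and 7 lower of 14, with a median of -0.023 and 0 called. Pklr had 85.3 ± 24.5 CPM in WT and 76.0 ± 9.42 CPM in S155A. The interaction of Pklr was -0.78 and that of Pfkfb1, which makes and degrades fructose-2,6-bisphosphate, the inhibitor of Fbp1, was 1.55 (unadjusted p = 0.00709 and 0.0203, adjusted p = 0.297 and 0.358 by edgeR).

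Of 24 tested transcriptional regulators 14 were higher and 10 lower, with a median of 0.060 and 0 called. Foxo1 had 33.5 ± 8.74 CPM in WT and 37.5 ± 11.2 CPM in S155A. The smallest unadjusted p among those higher and those lower was that of Cebpb (log2 fold change 0.67, unadjusted p = 0.0564) and of Creb1 (-0.37, unadjusted p = 0.115), each with an adjusted p of 0.993 by edgeR.

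Hormone-responsive reference genes gave 8 higher and 8 lower of 16, a median of 0.00036 and 0 called. At an unadjusted p under 0.05, 4 of the 16 interactions were positive and 2 negative, against 6.02% and 5.07% of all genes. Fkbp5 and Irs2 had interactions of 1.65 and 2.13, Fgf21 and Gcgr of -1.04 and -0.49. Their unadjusted p were 0.00154, 0.00974, 0.00218 and 0.0273, with adjusted p of 0.253, 0.309, 0.257 and 0.387 by edgeR. Irs2 had 34.1 CPM in WT replicate 4 and at most 13.6 CPM in any other mouse. Irs1, an adaptor of the insulin receptor, was 36.1 ± 6.96 CPM in WT and 22.3 ± 2.26 CPM in S155A, with every S155A mouse below every WT mouse (log2 fold change -0.69, unadjusted p = 0.000724, adjusted p = 0.993 by edgeR). The study reported lower Irs1 in its RNA sequencing of fasted female knock-in liver and by qPCR. A reduction of the protein was not shown there. Here no gene of this list was called for genotype by edgeR or in any of 17 alternatives, so Irs1 did not pass these tests. Trib3, an inhibitor of AKT, was 7.42 ± 2.0 CPM and 12.8 ± 3.53 CPM (0.78, unadjusted p = 0.00972, adjusted p = 0.993). Igfbp1, whose promoter like that of G6pc answers to FOXO1 and insulin, had 51.0, 74.3, 162 and 258 CPM in WT replicates 1 to 4 and 25.4, 141, 145 and 87.0 CPM in S155A replicates 1 to 4. Its WT mice stood in the same order as for G6pc, but its S155A mice did not. Its genotypes overlapped (log2 fold change -0.45, adjusted p = 0.993 by edgeR), and S155A minus WT was -1.28 with low and 0.38 with high animal numbers.

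**Figure D4:**
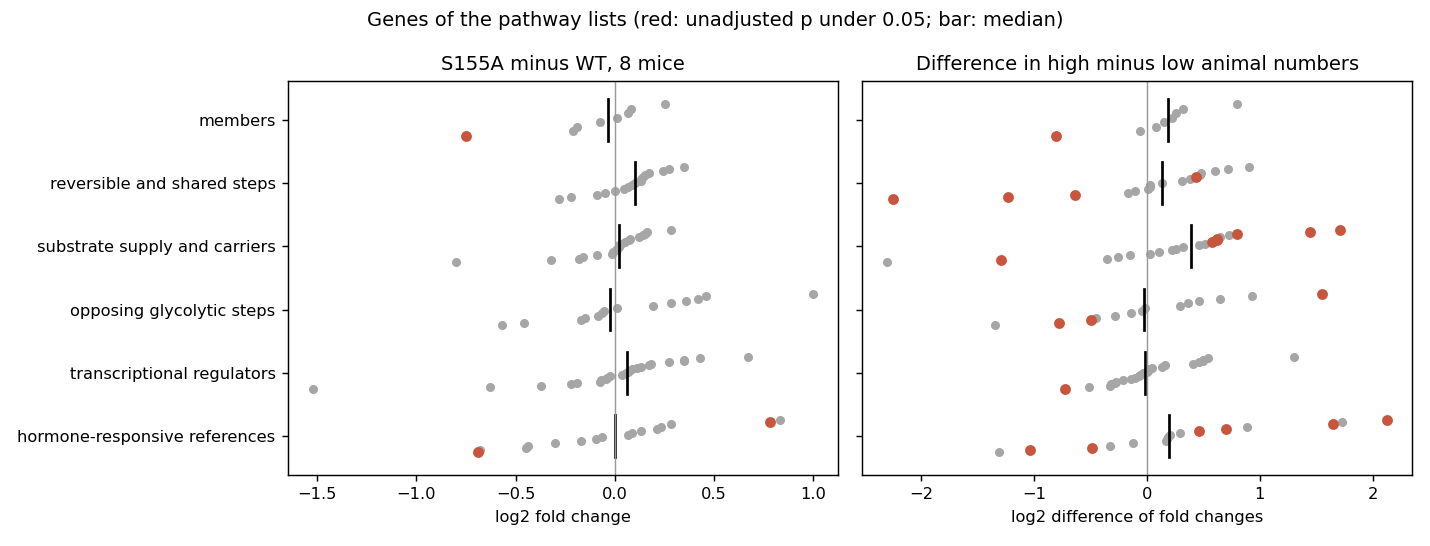
Log2 fold change of S155A against WT (left) and the difference of that fold change between high and low animal numbers (right) for each tested gene of 6 lists; black bars are medians and red points have an unadjusted p under 0.05. The medians at left lie between -0.033 and 0.099, and no point in either panel had an adjusted p under 0.05.

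Genes most like G6pc and Pck1 over the 8 mice were sought among 9573 genes with a mean log2 CPM of at least 2. For G6pc the highest Pearson r of log2 CPM were with Tm9sf3 (r = 0.94, Spearman rho 0.98), Pgap1 (0.90, 0.93) and Zfp36l1 (0.89, 0.81), and without the 2 mice farthest from the G6pc median r was 0.94, 0.71 and 0.65. For Pck1 they were Ppm1k (0.95, 0.76), Ocln (0.94, 0.95) and Rsf1 (0.94, 0.93), with r of 0.85, 0.87 and 0.83 without those mice. These values describe 8 mice that share their genotype groups, and they were picked as the highest of all genes compared.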

How the data were processed

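Stranded mRNA libraries had been made from the liver of 8 mice, and the authors deposited length-scaled estimated counts from salmon, 1 row per gene and unadjusted for sequencing depth. The version of salmon, annotation release and use of strand are not given in the sources used here. The submitters' processing notes list GRCm38, bcl2fastq, STAR, SAMtools, MultiQC and DESeq2 without versions. Length scaling can change a count where isoform use differs between mice. Columns were matched to mice by the animal number in the labels.

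After rounding to whole numbers, filterByExpr kept 14629 of 45706 genes. These were normalized by TMM and tested in edgeR 4.0.16 (R 4.3.3) by quasi-likelihood, with 4 mice per genotype, no block and Benjamini-Hochberg adjustment over all genes tested. Standard errors came from the F statistic. CPM used TMM-normalized sizes, and log2 CPM a prior count of 2. The interaction of genotype and animal number range was fitted in a separate model. The total count per library, 39709785 to 54540864, put 216 or more counts behind every value of a member. Each library was a separate mouse, so p-values set a difference against the spread between mice. No 2 libraries were copies of each other (chi-square per gene at least 40.2). The fits were tested on counts simulated gene by gene, which do not hold shifts shared by many genes, and the outcome is not given here.

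Gene coordinates and exon lengths are of GENCODE M21 (GRCm38), in which 45143 of the 45706 identifiers were found. Promoters are of RefSeq (GRCm38.p6). Members, lists and motifs were chosen with earlier results of these data known, and the motif TTACGT, and the fit without WT replicate 2 and S155A replicate 3, were added after seeing the data. The text names the 8 members, Plin5, Igfbp1, the enzymes of the ratios, up to 2 genes per list, direction and fit with the smallest unadjusted p, and the 3 genes most like G6pc and Pck1. Foxo1, Nr4a1, Sik1, Crem, Atf3, Ppargc1a, Nr4a3, Cps1, Ighm and Igkc were named after their values were seen. Glycerol kinase is in the table as Gyk.

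Alternatives were DESeq2 1.42.0, limma-voom (limma 3.58.1), DESeq2 size factors, library size alone, no filter, at least 1 CPM in 4 mice, blocks for replicate number or animal number range, a prior count of 0.5 for ratios, and leaving out each mouse. A gene of the opposing list, and the ratio that uses it, are not reported here.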

Additional observations from a re-analysis of the deposited data

How the results depend on the processing

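The log2 fold change of G6pc kept its sign in 17 of 17 alternatives (-0.89 to -0.51, unadjusted p 0.00115 to 0.021, adjusted p 0.455 to 1.0), as did those of Slc37a4, Pck2, Fbp1, Gpd1 and Ldha, and no member was called in any of them. Aqp9 turned to -0.037 with library size alone and -0.052 without WT replicate 2 and S155A replicate 3, and ranged from -0.037 to 0.069 when each mouse was left out. Leaving out each mouse moved Pck1 between -0.23 and 0.10, Slc37a4 between 0.11 and 0.49, Gpd1 between -0.38 and -0.020 and the members' median between -0.10 (without WT replicate 2) and 0.047 (without S155A replicate 1). DESeq2 called 6 genes for genotype, against 0 by edgeR.

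The interaction depended more on the tool. Against 0 genes by edgeR, DESeq2 called 285, limma-voom 1, the fit with no filter on low counts 765 and the replicate block 4, and leaving out each mouse gave 0 to 40, the most without WT replicate 4. With no filter 2 members were called, Slc37a4 (0.79, adjusted p = 0.0318) and Gpd1 (-0.82, adjusted p = 0.0161), and 1, 4, 4, 1 and 5 genes of the reversible, substrate, opposing, regulator and hormone lists. DESeq2 called 1, 1 and 3 of the reversible, substrate and hormone lists. The opposing list went from 0 to 1 when each mouse was left out, 1 without WT replicate 4. With library size alone the members' median interaction was 0.032, Pck1 was -0.065 and Pck2 -0.0014. Leaving out each mouse gave 0.072 to 0.33 for that median, -0.33 to 0.50 for Pck1, -0.38 to 0.71 for G6pc, 0.16 to 1.24 for Slc37a4, -1.13 to -0.55 for Gpd1 and -0.25 to 0.11 for Ldha. By the same omissions, the difference in the ratio of G6pc to Slc37a4 ran from -1.33 to -0.61, that of Ldha to Ldhb from -0.62 to -0.097, that of Pck1 to Pck2 from -0.31 to -0.0026, that of Gpd1 to Gpd2 from 0.048 to 0.27, that of Fbp1 to Pfkl from -0.064 to 0.21 and that of Pck1 to Pklr from -0.20 to 0.39. The cause of these differences was not tested.

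Deviations of same-numbered mice correlated at 0.056, 0.166, -0.111 and 0.129, and those of differently numbered mice at -0.194 to 0.14. These values do not settle whether replicate numbers pair the mice. In both genotypes replicates 1 and 4 had low and replicates 2 and 3 high animal numbers, so the replicate block also held the number range. Under the replicate block G6pc was -0.70 (unadjusted p = 0.00158, adjusted p = 0.967), and no member was called. The precision of each difference is limited by 4 mice a group, as its 95% interval gives.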
